A study of Mus musculus with 14 samples.

Results

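The enzymes that write and remove DNA methylation were examined in the mouse colon as 9 genes taken by name from the deposited count tables. They are the DNA methyltransferases Dnmt1, Dnmt3a and Dnmt3b, the TET dioxygenases Tet1, Tet2 and Tet3, and their partners Tdg, Mbd4 and Uhrf1. All 9 were found among the 55889 genes listed in the table without DSS and the 54721 genes listed in the table after DSS, and all 9 passed the filter on low counts among the 15441 and 14908 genes tested. The set joins miR-29 targets known for writing or removing DNA methylation with the proteins that work with them. Its rule used the gene names and not the counts, but the genes were chosen with earlier results of these data known.

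RNA sequencing compared C57BL/6N mice with a germline deletion of the miR-29a/b-1 cluster, miR-29ab1-/- (KO), and wild-type (WT) mice. Without dextran sulfate sodium (DSS), a polymer that injures the colonic epithelium, there were 4 WT and 4 KO mice. After DSS there were 3 WT and 3 KO mice, and the study places their sequencing at 3 days of 3.5% DSS in the drinking water, whereas its general protocol for colitis runs for 5 days. The methods describe mice in general as littermates 8 to 12 weeks old. The deletion is carried by every cell of the KO mice and leaves the second cluster, with miR-29b-2 and miR-29c, in place.

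Libraries held 14231157 to 18185020 counted reads without DSS and 20076719 to 23153149 after DSS. Without DSS every KO library was smaller than every WT library, at 1.42e+07 to 1.61e+07 against 1.72e+07 to 1.82e+07 reads. After DSS the genotypes overlapped in depth. The part of depth in the genotype differences without DSS was not tested beyond scaling to library size. The hairpins themselves had 0 or 1 read in every mouse of both genotypes, so these libraries do not measure the loss of the miRNAs. The neighbouring non-coding gene Lncpint had 7 to 23 reads in WT and 1386 to 2889 reads in KO mice without DSS, and 6 to 14 against 706 to 1144 after DSS, so that every mouse could be placed in its labelled genotype. Lncpint and Gm27019, next to the hairpins, passed an adjusted p of 0.05 in both experiments, and a transcript without annotation did so without DSS. No other gene did. Small-intestinal crypts are given as the tissue in the labels, whereas the series and the study name the colon. The colon markers had a median of 213 CPM (read counts scaled to a common library size) without DSS and 332 CPM after DSS. They ran from Hoxd13 at 29.1 and 34.6 CPM to Car1 at 2905 and 4357 CPM. The small-intestine markers had a median of 2.06 and 2.15 CPM. They ran from Apoa4 at 0.022 and 0.0079 CPM to Alpi at 15.5 and 24.1 CPM, so the nearest ends of the lists lay close together. The tissue is therefore called colon. These markers do not tell crypts from whole tissue. Epithelial markers had a median of 670 CPM without DSS and 977 CPM after DSS. Fibroblast and muscle markers had a median of 0.391 and 0.260 CPM, with Col3a1 highest without DSS (5.97 CPM) and Dcn after DSS (14.3 CPM). The muscle genes among them, Acta2, Myh11 and Des, had means of 0.211, 0.113 and 0.284 CPM in WT mice without DSS. In WT mice after DSS their means were 0.216, 0.0715 and 0.0872 CPM. Whether crypts or whole colon were sequenced was not tested. Mitochondrial genes took 8.81, 6.15 and 7.72% of the reads in WT and 14.8, 20.2 and 7.43% in KO mice after DSS, so that 2 of the 3 KO libraries lay above all WT libraries and KO mouse 2 was highest. The part of this share in the differences after DSS was not tested.

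Methylation of cytosine in CpG dinucleotides is laid down by DNMT3A and DNMT3B and copied after replication by DNMT1, which UHRF1 brings to the newly made, hemimethylated DNA. TET enzymes oxidise 5-methylcytosine, and the glycosylase TDG cuts out the oxidised bases so that base excision repair can restore cytosine. MBD4 removes thymine left by deamination of 5-methylcytosine. In the intestine DNMT1 and UHRF1 are known mainly from the dividing cells of the crypt base. MiR-29 lowers mRNAs that carry matches to its seed in the 3′ UTR, and DNMT3A, DNMT3B, TET enzymes and TDG are among its known targets.

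The mature miRNAs of the family, from RefSeq on GRCm38.p6, are shown because the matches described next follow from them. Capitals mark the seed, bases 2 to 8. The deletion removes miR-29a-3p and the copy of miR-29b-3p encoded on the minus strand of chromosome 6. The plus strand of chromosome 1 encodes a second copy of miR-29b-3p and miR-29c-3p, which has the same seed.
miR-29a-3p: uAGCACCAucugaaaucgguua
miR-29b-3p: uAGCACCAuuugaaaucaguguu
miR-29c-3p: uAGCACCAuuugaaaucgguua

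Seed matches were searched on the transcribed strand of the longest annotated 3′ UTR of each gene (GENCODE vM21, GRCm38). A match to the whole seed followed by A is TGGTGCTA (8mer), a match without the A is TGGTGCT (7mer-m8), and a match to bases 2 to 7 followed by A is GGTGCTA (7mer-A1). Each position was counted under the longest match only. Of 20996 genes with a 3′ UTR, 16% held a match of any kind, 13.1% an 8mer or 7mer-m8, 2.85% an 8mer and 0.386% 3 or more of the 8mer or 7mer-m8 kinds. These shares are not adjusted for UTR length, whose median was 954 bases.

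Of the 9 genes, 6 held matches. Tet3 held 2 8mers, 6 7mer-m8 and 2 7mer-A1 matches in 5669 bases. Tet1 held 1, 6 and 1 in 7962 bases, Dnmt3a 2, 3 and 1 in 6696 bases and Tet2 2, 3 and 0 in 3058 bases. Tdg held 1 8mer and 2 7mer-m8 matches in 2079 bases, and Dnmt3b held 1 7mer-m8 and 1 7mer-A1 match in 1331 bases. No match was found in the 3′ UTRs of Dnmt1 (312 bases), Uhrf1 (984 bases) or Mbd4 (1788 bases), although another annotated transcript of Mbd4 held a single 7mer-m8. A match is a description of the sequence and not a measured binding site.

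The matches of the genes on which the results turn are shown with the bases upstream of them, 5′ to 3′ on the gene's strand, and the match is in capitals. Both 8mers of Dnmt3a, which lie close together, and both 8mers of Tet2 and of Tet3 are given beside the single 7mer-m8 of Dnmt3b and the single 8mer of Tdg.
Dnmt3a chr12:3911383-3911412, plus strand: gcccttgcccaggggaggtagcTGGTGCTA
Dnmt3a chr12:3911452-3911481, plus strand: acataccagcggggtcccaagcTGGTGCTA
Dnmt3b chr2:153686604-153686633, plus strand: tggctgcttagagtagcccggcaTGGTGCT
Tet2 chr3:133466173-133466202, minus strand: ctgtttgggtgttaacattaaaTGGTGCTA
Tet2 chr3:133465116-133465145, minus strand: tgaagaaaaattcacatcacgaTGGTGCTA
Tet3 chr6:83364336-83364365, minus strand: tgaattgaaatagtctaataaaTGGTGCTA
Tet3 chr6:83363777-83363806, minus strand: tgccaccaaggccgcttttagtTGGTGCTA
Tdg chr10:82649655-82649684, plus strand: gtggctgctcatgcattttccaTGGTGCTA

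Levels between genes were compared as CPM per kilobase of the gene length deposited by the authors. In WT mice without DSS, Dnmt1 (12.7 ± 2.46, SD, n = 4), Uhrf1 (12.3 ± 1.86), Tet3 (9.93 ± 1.39) and Tdg (9.83 ± 0.331) were the most abundant, and Dnmt1 and Uhrf1, like Tet3 and Tdg, differed by less than their SD. Dnmt3a (3.44 ± 0.596) and Tet2 (1.86 ± 0.129) followed. Mbd4 (0.848 ± 0.185) and Dnmt3b (0.781 ± 0.0879) differed by less than the SD of Mbd4, and Tet1 (0.140 ± 0.0412) was lowest. The maintenance pair, Tet3 and Tdg made up the abundant part of the system in this tissue, and the de novo enzyme Dnmt3b and Tet1 its scarce part.

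In WT mice after DSS the same genes had 6.99 ± 1.07 (Dnmt1, SD, n = 3), 6.75 ± 1.32 (Uhrf1), 6.42 ± 2.13 (Tdg), 6.07 ± 0.555 (Tet3), 2.06 ± 0.0945 (Dnmt3a), 0.923 ± 0.229 (Tet2), 0.430 ± 0.0757 (Dnmt3b), 0.371 ± 0.0629 (Mbd4) and 0.0396 ± 0.0166 (Tet1) CPM per kilobase. Dnmt1, Uhrf1, Tdg and Tet3 lay within 1 SD of their neighbours in this order, as did Dnmt3b and Mbd4. Treatment and experiment cannot be told apart, since each experiment has its own table, normalized separately, so DSS against no DSS was not tested.

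**Figure D1:**
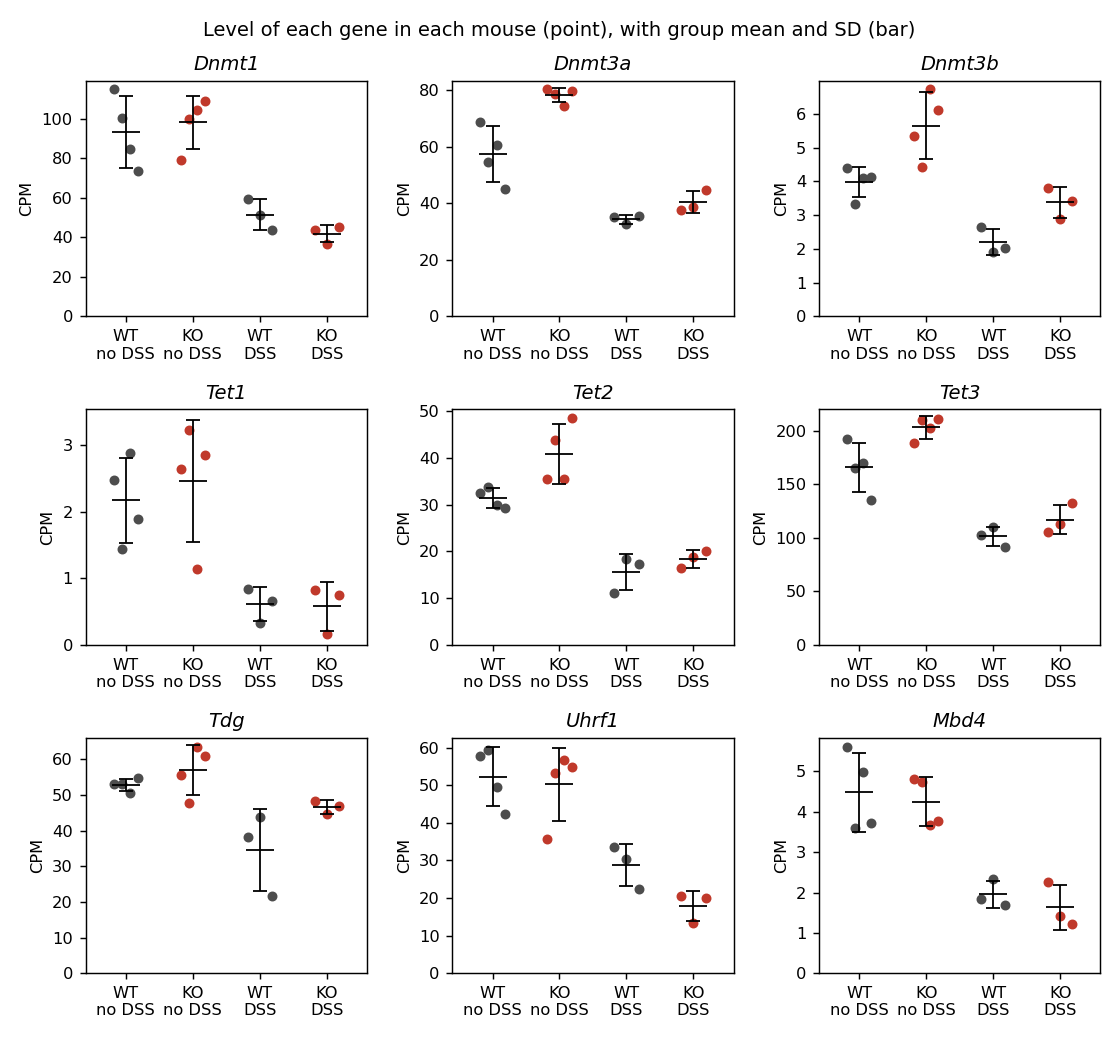
Level of each of the 9 genes in CPM (vertical axis, from 0) in WT (grey) and KO (red) mice without and after DSS; points are mice, and bars are the group mean and SD. Without DSS all KO points of Dnmt3a, Dnmt3b and Tet2 lie above all WT points, and after DSS all KO points of Uhrf1 lie below all WT points.

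Genotype was first compared in the colon without DSS. Of the 9 genes, 4 were higher in KO mice at an unadjusted p under 0.05 and 0 were lower, by edgeR's quasi-likelihood test. Among all 15441 genes tested, 2.09% were higher and 1.58% lower at this threshold, 3.67% in all. After adjustment over all genes none of the 9 passed (adjusted p = 0.9995 for each), and 0.0194% of all genes did. The 4 genes were the de novo methyltransferases Dnmt3a and Dnmt3b and the dioxygenases Tet2 and Tet3. The log2 fold changes of the 9 genes (KO against WT) had a median of 0.18, against −0.0016 over all genes tested, and 7 of the 9 were positive, against 49.5% of all genes. Because earlier results of these data were known when the 9 genes were chosen, such comparisons with all genes are descriptions and not tests of the set. In colon tissue, more or fewer cells of a type and more or less RNA per cell cannot be told apart.

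Dnmt3a, which methylates unmethylated CpGs, had 68.7, 54.7, 60.5 and 45.1 CPM in WT mice 1 to 4 and 80.2, 78.5, 74.5 and 79.5 CPM in KO mice 1 to 4. Every KO mouse lay above every WT mouse, which held for 3 of the 9 genes and for 1.09% of all genes tested, while 0.926% had every KO mouse below. The means were 57.2 ± 9.92 and 78.2 ± 2.56 CPM (SD, n = 4 and 4), from 811 to 1293 reads in a mouse. The log2 fold change was 0.45 ± 0.12 (SE), or 1.37-fold, and its unadjusted p of 0.00322 in edgeR's quasi-likelihood test gave Dnmt3a rank 46 among the genes tested. It stayed between 0.35 and 0.56 when any single mouse was left out, with unadjusted p values of 0.000441 to 0.00989 in the same test.

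Dnmt3b, the other de novo enzyme, was much scarcer, with 4.39, 3.35, 4.10 and 4.12 CPM in WT and 5.35, 4.43, 6.73 and 6.11 CPM in KO mice. The groups did not overlap, although KO mouse 2 and WT mouse 1 were nearly level. Its log2 fold change was 0.50 ± 0.20 (SE) with an unadjusted p of 0.0319 (edgeR). These values rest on 56 to 106 reads in a mouse, and without WT mouse 2, 3 or 4, or KO mouse 3 or 4, the unadjusted p by edgeR rose to between 0.0509 and 0.0877.

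Dnmt1, the maintenance enzyme, had 115, 100, 84.9 and 73.6 CPM in WT and 79.2, 99.99, 105 and 109 CPM in KO mice. The groups overlapped over most of their range, and the log2 fold change was 0.07 ± 0.15 (SE, unadjusted p = 0.630, edgeR), with a 95% interval of −0.22 to 0.36.

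Tet2 was the dioxygenase with the clearest separation, at 32.5, 33.9, 29.9 and 29.2 CPM in WT and 35.6, 43.9, 35.4 and 48.5 CPM in KO mice. Every KO mouse was above every WT mouse, with KO mice 2 and 4 highest. KO mice exceeded WT mice by 0.38 ± 0.12 (SE) on the log2 scale, or 1.30-fold, with an unadjusted p of 0.00948 (edgeR), and leaving out single mice gave 0.29 to 0.46 with unadjusted p values of 0.00474 to 0.0313.

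Tet3, the most abundant TET gene here, had 192, 165, 170 and 136 CPM in WT and 188, 210, 203 and 211 CPM in KO mice. Of the KO mice, 3 of 4 were above all WT mice, while KO mouse 1 lay below WT mouse 1. The log2 fold change was 0.30 ± 0.11 (SE, unadjusted p = 0.0235, edgeR), and without WT mouse 4 or KO mouse 4 the unadjusted p was 0.0634 or 0.055 in the same test. Tet1 had 18 to 53 reads in a mouse, or 1.14 to 3.22 CPM, and its log2 fold change of 0.18 ± 0.36 (SE, unadjusted p = 0.619, edgeR) has a 95% interval of −0.52 to 0.88, wide enough to hold the values of Tet2 and Tet3.

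Among the partners, the glycosylase gene Tdg had 53.2, 53.0, 50.5 and 54.8 CPM in WT and 55.6, 47.7, 63.5 and 60.9 CPM in KO mice. Of the KO mice, 3 of 4 were above all WT mice and 1 was below them all, and the log2 fold change was 0.11 ± 0.10 (SE, unadjusted p = 0.295, edgeR). Uhrf1 had 57.9, 59.4, 49.6 and 42.3 CPM in WT and 35.8, 53.2, 56.8 and 54.9 CPM in KO mice, with overlapping groups and a log2 fold change of −0.06 ± 0.16 (SE, unadjusted p = 0.728, edgeR). Mbd4 had 3.58 to 5.60 CPM in WT and 3.68 to 4.81 CPM in KO mice, and its log2 fold change was −0.07 ± 0.22 (SE, unadjusted p = 0.748, edgeR).

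The cell cycle list of 16 genes gave mean log2 CPM values of 5.30 to 5.67 in WT and 5.21 to 5.70 in KO mice without DSS, and none of its genes passed an unadjusted p of 0.05. The summed level of the 10 T cell markers was 40.6 to 151 CPM in WT and 34.0 to 178 CPM in KO mice, led by Cd8a, with Cd28 lowest. With the cell cycle score as a covariate, the log2 fold changes of Dnmt3a, Tet2, Tet3 and Dnmt3b were 0.45, 0.39, 0.31 and 0.51, and with the T cell score they were 0.44, 0.36, 0.28 and 0.47, each with an unadjusted p under 0.05 by edgeR.

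**Figure D2:**
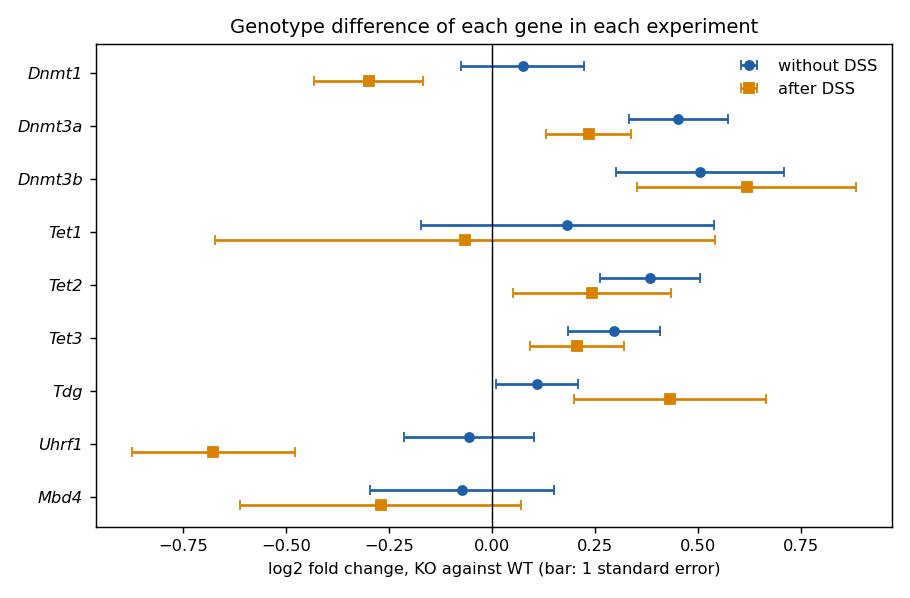
Log2 fold change of KO against WT (horizontal axis, with 1 standard error) for the 9 genes without DSS (circles) and after DSS (squares). Dnmt3a, Dnmt3b, Tet2, Tet3 and Tdg lie above 0 in both experiments, and Uhrf1 is near 0 without DSS (−0.06) and at −0.68 after DSS.

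After DSS the comparison of genotypes gave another order. Of the 9 genes, Dnmt3b was higher in KO mice at an unadjusted p under 0.05, and Uhrf1 and Dnmt1 were lower, by edgeR's quasi-likelihood test. The share of all 14908 genes at this threshold was 3.98% in the upward and 3.25% in the downward direction, 7.23% in all. None of the 9 passed after adjustment over all genes (adjusted p from 0.646 to 0.988), and 0.0134% of all genes did. The median log2 fold change of the 9 was 0.21, against −0.0051 over all genes tested, and 5 of the 9 were positive, against 49.0% of all genes.

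Uhrf1, which guides DNMT1 to replicated DNA, had 33.5, 30.3 and 22.5 CPM in WT and 20.7, 13.4 and 19.9 CPM in KO mice. All KO mice were below all WT mice, as for 5.86% of the genes tested (5.97% lay wholly above), and KO mouse 2, the library with the highest mitochondrial share, was lowest. The means were 28.8 ± 5.63 and 18.0 ± 4.00 CPM (SD, n = 3 and 3). The log2 fold change was −0.68 ± 0.20 (SE), or 0.626-fold, with an unadjusted p of 0.00817 and an adjusted p of 0.646 (edgeR). Without KO mouse 2 it was −0.51 (unadjusted p = 0.021, edgeR), and leaving out any other single mouse gave −0.82 to −0.56 with unadjusted p values of 0.00237 to 0.0315.

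Dnmt1 had 59.6, 51.4 and 43.8 CPM in WT and 43.9, 36.8 and 45.1 CPM in KO mice. The groups overlapped, since WT mouse 3 was level with KO mouse 1. On the log2 scale the difference was −0.30 ± 0.13 (SE) with an unadjusted p of 0.0486 (edgeR), and it was −0.19 without WT mouse 1 (unadjusted p = 0.187) and −0.22 without KO mouse 2 (unadjusted p = 0.165) in the same test.

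The cell cycle list was lowest after DSS in KO mouse 2, in which Uhrf1 and Dnmt1 were lowest. Its mean log2 CPM was 4.84, 4.94 and 4.65 in WT and 4.77, 4.23 and 4.64 in KO mice. Within the KO mice Uhrf1 ran in the order of the score, while Dnmt1 was highest in KO mouse 3 and the score in KO mouse 1. Of the WT mice, mouse 3 was lowest in the score and in both genes. WT mouse 2 had the highest score and WT mouse 1 the highest level of both genes. Between genotypes, KO mouse 1 had a higher score than WT mouse 3 but less Uhrf1. With this score as a covariate the log2 fold change of Uhrf1 was −0.35 (unadjusted p = 0.0639, edgeR) and that of Dnmt1 −0.14 (unadjusted p = 0.371, edgeR). With the T cell score they were −0.51 (unadjusted p = 0.108, edgeR) and −0.16 (unadjusted p = 0.404, edgeR). With 6 mice the part of dividing or immune cells in these differences was not tested further.

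**Figure D3:**
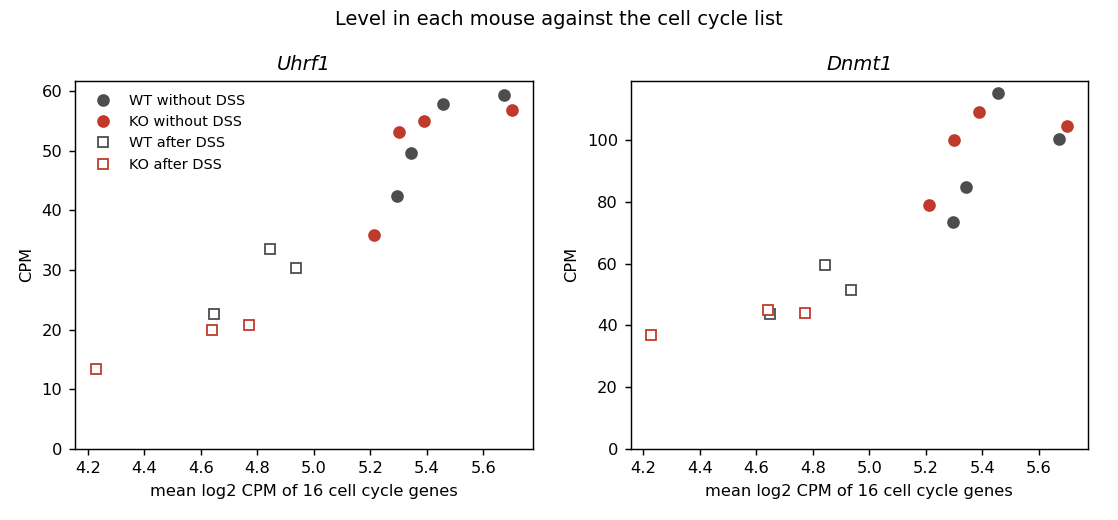
CPM of Uhrf1 (left) and Dnmt1 (right) in each of the 14 mice against the mean log2 CPM of the 16 cell cycle genes; filled circles are mice without DSS, open squares mice after DSS, WT grey and KO red. The KO mouse at 4.23 on the horizontal axis has the lowest level of both genes, and mice without DSS lie above and to the right of mice after DSS.

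Dnmt3b had 2.64, 1.92 and 2.03 CPM in WT and 3.81, 2.89 and 3.44 CPM in KO mice after DSS. The groups did not overlap, with KO mouse 2 nearest to the WT mice. Its log2 fold change was 0.62 ± 0.27 (SE) with an unadjusted p of 0.0455 (edgeR), from 43 to 82 reads in a mouse, and the unadjusted p was above 0.05 on leaving out any of 4 of the 6 mice (0.0805 to 0.131, edgeR). Dnmt3a had 34.98, 32.5 and 35.4 CPM in WT and 37.6, 38.7 and 44.7 CPM in KO mice. Every KO mouse was again above every WT mouse, but by a smaller margin, and the log2 fold change was 0.23 ± 0.10 (SE), or 1.18-fold, with an unadjusted p of 0.0501 (edgeR).

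Tet3 had 102, 110 and 91.5 CPM in WT and 106, 113 and 133 CPM in KO mice after DSS, and the groups overlapped (log2 fold change 0.21 ± 0.11, SE, unadjusted p = 0.103, edgeR). Tet2 had 11.1, 18.3 and 17.3 CPM in WT and 16.4, 18.9 and 19.99 CPM in KO mice, with a log2 fold change of 0.24 ± 0.19 (SE, unadjusted p = 0.239, edgeR) that was 0.05 without WT mouse 1. Tet1 had 3 to 20 reads in a mouse, at which a difference between genotypes was not detectable (log2 fold change −0.07 ± 0.61, SE, unadjusted p = 0.916, edgeR).

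Tdg had 38.1, 43.7 and 21.7 CPM in WT and 48.3, 44.6 and 46.9 CPM in KO mice after DSS. All KO mice lay above all WT mice, though KO mouse 2 and WT mouse 2 were close and WT mouse 3 was far below the rest. The log2 fold change was 0.43 ± 0.23 (SE, unadjusted p = 0.105, edgeR) and 0.19 without WT mouse 3. In all, 3 of the 9 genes lay wholly above and 1 wholly below in KO mice after DSS, against 5.97% and 5.86% of all genes tested. Mbd4 had 27 to 56 reads in a mouse and a log2 fold change of −0.27 ± 0.34 (SE, unadjusted p = 0.448, edgeR).

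The change of the genotype difference with DSS was tested as an interaction over all 14 mice. Among 16370 genes, 4.03% passed an unadjusted p of 0.05 and 0% an adjusted p of 0.05. Uhrf1 was the single member at an unadjusted p under 0.05, with a log2 fold change after DSS minus that without DSS of −0.62 ± 0.27 (SE), an unadjusted p of 0.0374 and an adjusted p of 0.987 (edgeR). Without KO mouse 2 after DSS that difference was −0.44 (unadjusted p = 0.114, edgeR), and in 8 of the 14 fits that each left out a mouse the p was above 0.05. For Dnmt3a the difference was −0.22 ± 0.16 and for Dnmt1 −0.37 ± 0.21 (SE, unadjusted p = 0.191 and 0.102, edgeR), so the smaller Dnmt3a effect and the lower Dnmt1 after DSS were not shown to differ from the values without DSS. Because treatment and experiment go together, this test compares the experiments as a whole.

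Set beside the seed matches, the 6 genes with a match had log2 fold changes of 0.11 to 0.50 without DSS, with 4 of the 6 at an unadjusted p under 0.05, and the 3 genes without one had −0.07 to 0.07 with 0 of the 3. After DSS the 6 genes spanned −0.07 to 0.62 and the 3 genes −0.68 to −0.27. With 9 genes this is a description and was not tested. Tet1 has 8 matches of all kinds but too few reads to place it.

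Among all tested genes with a 3′ UTR and no match, 1.84% were higher and 1.74% lower in KO mice without DSS (unadjusted p under 0.05, edgeR, 10385 genes). The share that was higher was 3.54% of 1949 genes with an 8mer or 7mer-m8, 7.23% of 401 with an 8mer and 13.3% of 60 with 3 or more 8mer or 7mer-m8 matches. Dnmt3a, Tet1, Tet2, Tet3 and Tdg belong to these 60 genes, and Dnmt3a, Tet2 and Tet3 to the 8 of them that were higher. The shares that were lower were 0.718%, 0.748% and 0%. The median log2 fold change was −0.0097 with no match, 0.03 with an 8mer or 7mer-m8, 0.05 with an 8mer and 0.13 with 3 or more. After DSS, 8.96% of 402 genes with an 8mer were higher and 1.74% lower, against 3.63% and 3.73% of 10389 genes with no match, but of 58 genes with 3 or more matches 1.72% were higher and 3.45% lower. Of 295 genes with 2 or more, 6.44% were higher and 2.37% lower. The median log2 fold change after DSS was −0.015 with no match, −0.0081 with an 8mer or 7mer-m8, 0.035 with an 8mer and 0.024 with 3 or more. The classes were not adjusted for UTR length.

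**Figure D4:**
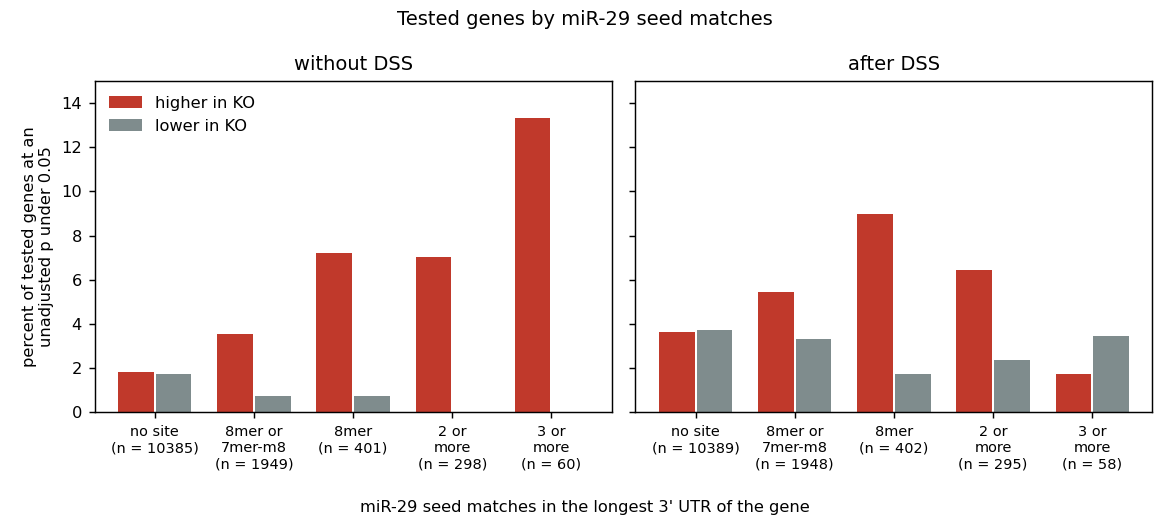
Percent of tested genes at an unadjusted p under 0.05 (vertical axis) that were higher (red) or lower (grey) in KO mice, by miR-29 seed matches in the longest 3′ UTR, without DSS (left) and after DSS (right); n is the number of tested genes in each class, the classes after the first overlap, and the last 2 count 8mer and 7mer-m8 matches. Without DSS the share higher in KO goes from 1.84% with no match to 13.3% with 3 or more (8 of 60 genes), while after DSS that class has 1.72% (1 of 58 genes).

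The other genes of the pathway were taken from lists given by function. Without DSS none of the genes in these lists or in the lists of cell type markers passed an unadjusted p of 0.05. Of 9 tested partners of the methyltransferases, the log2 fold changes lay between −0.09 and 0.13 (median −0.01), with the smallest p for Cdca7, a cofactor of the remodeller HELLS (0.13 ± 0.08, SE, unadjusted p = 0.135, edgeR). The 9 methyl-CpG readers had a median of 0.04, and the 8 TET partners a median of 0.01, with Idh1 at −0.13 ± 0.13 (SE, unadjusted p = 0.309, edgeR).

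Of the base excision repair genes, 11 were tested (median 0.05), with the glycosylase Smug1 at 0.17 ± 0.10 (SE, unadjusted p = 0.102, edgeR). Of the genes that supply methyl groups as S-adenosylmethionine, 8 were tested (median −0.06). Mat2a, which makes S-adenosylmethionine, had 18.9 to 51.8 CPM in WT and 11.7 to 30.8 CPM in KO mice, a log2 fold change of −0.73 ± 0.36 (SE, unadjusted p = 0.0753, edgeR). In the cell cycle list the smallest p was that of Mcm3, a subunit of the replicative helicase (−0.13 ± 0.13, SE, unadjusted p = 0.334, edgeR).

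After DSS, 3 of the 9 partners of the methyltransferases were lower in KO mice at an unadjusted p under 0.05 and none was higher (median −0.15). Among all genes tested, 3.25% were lower and 3.98% higher at this threshold. Cdca7 had 28.7 to 34.3 CPM in WT and 20.7 to 28.2 CPM in KO mice, with a log2 fold change of −0.38 ± 0.14 (SE, unadjusted p = 0.0228, edgeR). Trim28, a co-repressor of zinc-finger proteins, had −0.32 ± 0.12 (SE, unadjusted p = 0.0251, edgeR) and Hells, a remodeller needed for methylation of heterochromatin, −0.58 ± 0.25 (SE, unadjusted p = 0.0421, edgeR). All 3 lay wholly below the WT mice, as did the partner Cdca7l (unadjusted p = 0.0709, edgeR) and 5.86% of all genes tested.

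Of the 16 cell cycle genes, the helicase subunits Mcm6, Mcm3 and Mcm7 were lower after DSS at an unadjusted p under 0.05 by edgeR (log2 fold changes −0.62, −0.61 and −0.51). The share of all genes lower at this threshold was 3.25%. Of the 16 genes 0 were higher, and their median was −0.25. The median was −0.10 to −0.36 on leaving out single mice. In base excision repair, Ung, the uracil glycosylase, had 13.5 to 20.6 CPM in WT and 9.37 to 12.1 CPM in KO mice (−0.61 ± 0.19, SE, unadjusted p = 0.00959, edgeR), the only one of 10 tested. The readers and the TET partners had 0 genes at this threshold, with medians of −0.05 and −0.08. The genes with the smallest p were Mbd3 (−0.22 ± 0.10, SE, unadjusted p = 0.0575, edgeR) and Cxxc5 (−0.49 ± 0.26, SE, unadjusted p = 0.09, edgeR).

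Bhmt, which remethylates homocysteine, was the only one of 8 methyl donor genes at this threshold after DSS (log2 fold change 2.70 ± 1.05, SE, unadjusted p = 0.0353, edgeR). It had 0 to 0.667 CPM in WT and 0.587 to 3.10 CPM in KO mice, overlapping groups at a very low level. Of 14 germline genes whose promoters are normally methylated in somatic tissue, 2 passed the filter in each experiment, Tdrd1 and Brdt, and neither passed an unadjusted p of 0.05. The smallest p was that of Brdt, at 0.374 without DSS and 0.260 after DSS (edgeR, log2 fold changes −0.28 and −0.52).

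**Figure D5:**
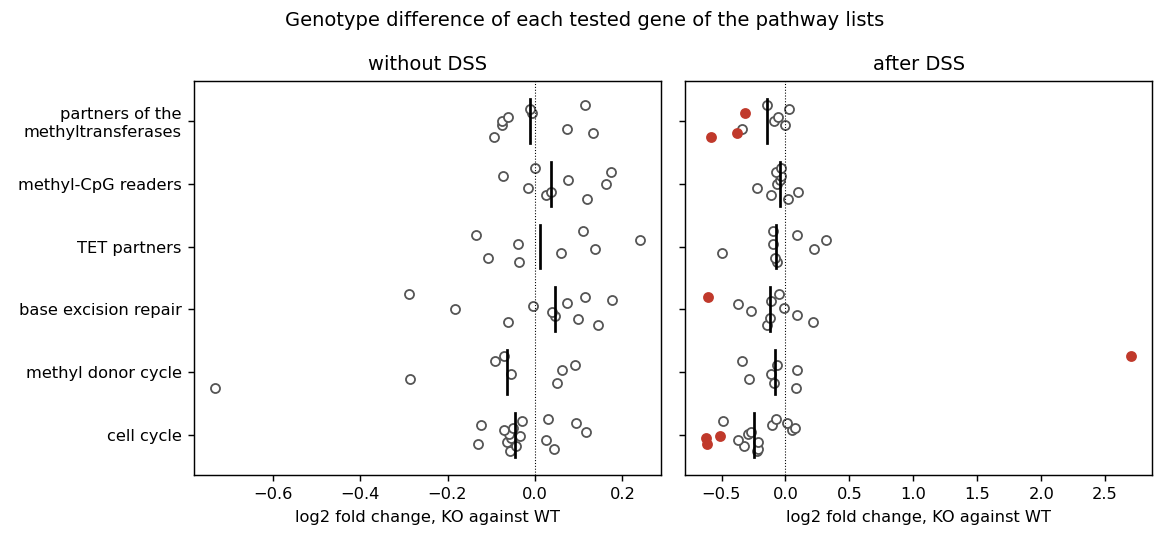
Log2 fold change of KO against WT (horizontal axes, which differ in range) for each tested gene of 6 lists without DSS (left) and after DSS (right); red points passed an unadjusted p of 0.05 and black bars are list medians. No point is red without DSS, and after DSS 3 partners of the methyltransferases, 3 cell cycle genes, Ung and Bhmt are red.

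Markers of other cells were also compared between genotypes after DSS. None passed an adjusted p of 0.05 by edgeR, and the summed level of each list below overlapped between the genotypes. Over all genes tested, 3.98% were higher and 3.25% lower in KO mice at an unadjusted p under 0.05 (edgeR). Of the 10 T cell markers tested, 3 (Cd28, Cd247 and Cd5) were higher in KO mice at an unadjusted p under 0.05 by edgeR and 0 were lower, with a median log2 fold change of 0.78, and their summed level was 40.5 to 77.1 CPM in WT and 57.8 to 136 CPM in KO mice. Of 8 myeloid markers, S100a8 was higher (unadjusted p = 0.0392, edgeR), with a summed level of 30.6 to 64.9 against 43.1 to 109 CPM. Of 3 tested fibroblast and muscle markers, Col3a1 was higher (log2 fold change 1.24, unadjusted p = 0.00365, edgeR), while Col1a1 and Dcn were at −0.07 and −0.15, the median was −0.07 and the list summed to 18.0 to 29.9 against 14.6 to 43.0 CPM. The 7 epithelial markers, led by Krt8, had 0 genes at this threshold and summed to 13033 to 15034 CPM in WT and 14021 to 15931 CPM in KO mice. The 6 B cell markers summed to 1.63, 1.46 and 8.38 CPM in WT and 1.09 to 2.16 CPM in KO mice, so that WT mouse 3 alone was high. Of these, 2 passed the filter on low counts, Ms4a1 and Cd79b, with log2 fold changes of −1.33 and −1.32 and neither at this threshold. None of the markers in these lists was at 0 in all mice. The part of these cells in the values of the 9 genes was not tested beyond the fits with a score as a covariate. With the T cell score Dnmt3b, the member higher without it, was at 0.60 with an unadjusted p of 0.15 (edgeR), while Tdg (0.80) and Tet3 (0.41) had an unadjusted p of 0.0339 and 0.00985 (edgeR). With the cell cycle score Dnmt3b was at 0.76 (unadjusted p = 0.0517, edgeR) and Tdg at 0.68 (unadjusted p = 0.0457, edgeR).

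The genes whose level varied most like that of each member were found across mice after subtracting the mean of each genotype, among 11014 or 11015 genes without DSS. For Dnmt1 they were Rbl1 and Cenph (Pearson's r = 0.991 and 0.975 over 8 mice), and for Uhrf1 Htt and Ino80 (0.985 and 0.984). For Dnmt3a they were Gpatch8 and Git2 (0.990 and 0.988), for Dnmt3b Pop4 and Ugt2b5 (0.957 and 0.947) and for Tet1 Zfp606 and Snhg16 (0.972 and 0.970). Tet2 varied most like Arhgef18 and Shmt1 (0.983 and 0.962), Tet3 like Nr2c2 and Pole (0.983 and 0.970), Tdg like Park7 and Rbm8a (0.960 and 0.957) and Mbd4 like Kit and Tle3 (0.988 each). These are the highest of all the correlations computed, over few mice that share libraries and normalization. After DSS, over 6 mice, the corresponding values ran from 0.993 to 0.999, and none of the genes named for a member without DSS was named for it again.

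Some of the members share exon bases or sequence with other genes. Glt8d2 overlaps 367 exon bases of Tdg on the other strand and had 2 to 9 reads in a mouse. The antisense genes Dnmt3aos, Gm42567 and Gm44206 overlap 133, 43 and 264 exon bases of Dnmt3a, Tet2 and Mbd4, and the pseudogenes Tdg-ps and Dnmt3a-ps1 resemble Tdg and Dnmt3a. Each of these had at most 9 reads in any mouse. Whether strand was used in counting is not given in the sources used here, so reads of a member and of its partner on the other strand cannot be told apart where they overlap.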

How the data were processed

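RNA sequencing was done by the authors on 14 mice, on colon tissue as the study names it, with a directional library kit. HISAT2 and DESeq2 are named in the submitters' processing notes. The counting tool, genome build and use of strand are not given in the sources used here. Per experiment, the authors deposited a table with a raw, unscaled read count for each gene. The 14 FPKM columns and the authors' own group means, fold changes and p-values were not used. After DSS the column numbers do not match those of the labels, so columns were assigned to groups only and mice are numbered by column. The study excluded a WT and a KO sample, which the sources used here do not name.

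Genes kept by filterByExpr (minimum count 10, minimum total 15) were tested in each experiment with edgeR 4.0.16 in R 4.3.3 (TMM factors, quasi-likelihood test, Benjamini-Hochberg adjustment over all genes tested). Standard errors are the log2 fold change divided by the square root of F, and 95% intervals are normal. The fits were tested on simulated data, without DSS and after DSS. Of 100 genes given a 1.35-fold change, 61 and 55 passed an unadjusted p of 0.05, but only 5 and 1 an adjusted p of 0.05 (edgeR). Of 100 genes given a 2-fold change, 51 and 53 passed an adjusted p of 0.05. A change of the size seen for Dnmt3a would thus mostly be missed after adjustment. A count of 3 reads corresponds to 0.165 to 0.213 CPM without DSS and 0.125 to 0.158 CPM after DSS, and such floors cover counting error only. Positions are on GRCm38, since 99.47% and 98.33% of the identifiers found in GENCODE vM21 match it in start and end. The 9 genes and all lists were chosen with earlier results of these data known. Named were all 9 genes, from each list the genes at an unadjusted p under 0.05 (at most 4, smallest p first, otherwise the gene with the smallest p), and for each member the 2 most correlated genes of at least 5 CPM on average. The single gene of the methyl-CpG readers without DSS is not reported here. P-values measure the spread between mice of a group. DESeq2 1.42.0, other normalizations, filters, samples and covariates were tried as alternatives.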

Additional observations from a re-analysis of the deposited data

Results flagged for a closer look

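Uhrf1 differed between the experiments in its genotype difference: its log2 fold change of KO against WT was −0.06 without DSS and −0.68 after DSS, a difference of −0.62 ± 0.27 (SE) with an unadjusted p of 0.0374 in edgeR's interaction test over 14 mice. The adjusted p was 0.987, so the difference did not pass correction over all genes. Leaving out single mice gave −0.77 to −0.44. The lowest of the 6 mice given DSS was KO mouse 2, which also had the lowest cell cycle score (4.23) and the highest share of mitochondrial reads (20.2%). In the groups of 4 mice without DSS, 18 sets of values (9 genes in WT and in KO mice) were examined for a mouse far from its group, and 0 were found.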

How the results depend on the processing

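None of the 9 genes passed an adjusted p of 0.05 in any alternative, but the adjusted values depended on the processing. The lowest was 0.0802, for Uhrf1 after DSS, over the settings run with edgeR or DESeq2. On leaving out single mice the lowest of any member was 0.175 (edgeR). Without DSS, Dnmt3a had an adjusted p of 0.226 with DESeq2. Without DSS the count of members higher in KO at an unadjusted p under 0.05 (4) was 2 to 4 on leaving out single mice, with 2 without WT mouse 4 or KO mouse 4. After DSS that count (1) was 2 with RLE factors, upper-quartile factors, protein-coding genes only, at least 10 counts in every mouse, all 14 mice in one model and the T cell score, 0 with no filter and 0 to 1 on leaving out single mice. With the T cell score these were Tdg and Tet3, and with the cell cycle score the 1 was Tdg, so that Dnmt3b was called with neither score. The count lower (2) was 1 with DESeq2, RLE factors, upper-quartile factors, protein-coding genes only, at least 10 counts in every mouse and all 14 mice, 0 with either score as a covariate and 1 to 2 on leaving out mice. Dnmt1, Dnmt3a and Dnmt3b lie near the threshold after DSS, so these counts say little of single genes.

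Over all genes, the adjusted calls without DSS (3) were 24 with DESeq2, 11 with no filter, 0 with at least 10 counts in every mouse, 0 with protein-coding genes only and 3 to 5 on leaving out mice. After DSS (2) they were 59 with DESeq2, 46 with no filter, 0 with at least 10 counts, protein-coding genes only or the cell cycle score, 1 with the T cell score and 0 to 93 on leaving out mice (93 without KO mouse 3). Unadjusted calls with no filter were 703 higher and 396 lower without DSS, and 1037 and 782 after DSS. With the cell cycle score they were 203 and 180 after DSS, and with the T cell score 113 and 131. Leaving out mice after DSS gave 268 to 1288 higher and 215 to 1242 lower, fewest without KO mouse 2 and most without KO mouse 3, and without DSS 281 to 422 and 170 to 336. The interaction had 0 to 1 adjusted calls on leaving out mice.

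Directions turned for members near 0. Tet1 after DSS was 0.40 with the cell cycle score and −0.38 to 0.36 on leaving out mice. Without DSS, leaving out mice gave −0.026 to 0.20 for Dnmt1, −0.15 to 0.076 for Uhrf1 and −0.17 to 0.061 for Mbd4. For the interaction it gave −0.56 to 0.18 for Tet1 and −0.33 to 0.00403 for Tet2. List medians after DSS on leaving out mice were −0.23 to −0.16 for the methyltransferase partners, −0.13 to 0.00143 for the readers and −0.40 to 0.00143 for the germline genes. The causes were not tested.

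With the replicate number of the labels as a block, run only without DSS, the same count of 4 members was higher and Dnmt3a was at 0.47 (unadjusted p = 0.00505, edgeR). The block changed no member's side of the threshold. Deviations of same-numbered WT and KO mice had correlations of −0.19 to 0.15, which gave no sign of pairing. With so few mice this cannot exclude that the numbers pair them. After DSS the block was not run, because the numbers of the columns differ from those of the labels and do not tie a column to a labelled mouse. At this depth Tet1 (3 to 53 reads) and Mbd4 (27 to 102 reads) give intervals too wide to place them.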

Other observations

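Mat2a, whose product makes the methyl donor of the DNA methyltransferases, had 18.9 to 51.8 CPM in WT and 11.7 to 30.8 CPM in KO mice without DSS, and 227 to 264 CPM in WT and 224 to 309 CPM in KO mice after DSS. The ranges are far apart, whereas Mat2b, its regulatory subunit, had means of 88.1 and 91.1 CPM without DSS and 86.4 and 81.2 CPM after DSS in WT and KO mice. The tables were normalized separately, and treatment and experiment cannot be told apart. Mat2a was singled out here after its values were seen.

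The 9 members were at lower mean CPM after DSS than without it in both genotypes, as a ratio by the least for Tdg in KO mice (56.9 against 46.6 CPM) and by the most for Tet1 in KO mice (2.46 against 0.578 CPM), with the same limit.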
